A study of Mus musculus with 4 samples.

Results

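Natural killer (NK) cells of normal mouse spleen were sorted by surface DNAM-1 into a DNAM-1+ and a DNAM-1- fraction, and the RNA of each fraction was sequenced as 1 library. These 2 libraries, of 4 in the series, were chosen by their sample labels. The comparison covers 8544 protein-coding genes that reached 5 FPKM, a level scaled for transcript length and library depth, in whichever of the pair held more, out of 17723 genes listed in any of the 4. Each comparison is the log2 ratio of DNAM-1+ over DNAM-1- with 1 FPKM added to each level, so that differences of weakly expressed genes come out too small. With 1 library a side no difference has a replicate check, so levels and ratios are described and no p-value is given.

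The mice were C57BL/6J animals of 6 to 8 weeks. The labels place the normal spleen at day 0 of a leukaemia model in which GFP+ leukaemia cells were transplanted without irradiation. The other pair of libraries, DNAM-1+ and DNAM-1- NK cells from spleen with MLL-AF9 acute myeloid leukaemia (AML) at day 17 after transplantation, shares no library with the normal pair. The same ratio is given for it below as that of another condition, and not as a replicate of the normal pair. No genotype other than the strain, no other sorting marker, no purity and no number of mice is given in the labels.

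DNAM-1, encoded by Cd226, is an adhesion and activating receptor of NK cells and T cells that binds the nectin-family ligands CD155 and CD112 on target cells. It shares these ligands with the receptors TIGIT and CD96. NK cells mature in bone marrow and spleen from CD27-positive to CD11b-positive stages, under the control of IL-15 and the transcription factors T-bet and Eomes, and kill through perforin and granzymes.

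The sort was visible in its target. Cd226 was at 38.6 FPKM in the DNAM-1+ library and 0.45 FPKM in the DNAM-1- library, a log2 ratio of 4.77 (95% counting interval 4.23 to 5.32) on an estimated 257 and 2.87 reads. Il7r, the IL-7 receptor alpha chain, was at 38.5 against 2.06 FPKM (log2 3.69), and Thy1, a surface glycoprotein of T cells and part of the NK cells, at 251 against 69.1 FPKM (log2 1.84). All 3 were higher in the DNAM-1+ library, Thy1 from a level that was substantial in the DNAM-1- library too. The intervals come from estimated read numbers and leave out any variation among animals. Depth, read from the spacing of microRNA values, came to 9450000 fragments (DNAM-1+) and 9050000 fragments (DNAM-1-).

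Most genes did not separate the fractions. Over the 8544 genes the median log2 ratio was 0.01, the range from the 5th to the 95th percentile was -0.70 to 0.43, and 91.4% of genes lay within 1.5-fold. On the DNAM-1+ side 94 genes (1.1% of those compared) stood 2-fold or more above the DNAM-1- level, and 323 genes (3.78%) stood 2-fold or more below it. At 3-fold the counts were 20 higher and 210 lower, at 4-fold 4 higher (Cd226, Il7r, Podnl1 and Apol7b) and 134 lower, and at 8-fold 2 higher and 10 lower. The genes at least 2-fold higher had a median of 9.78 FPKM in DNAM-1+ and 3.14 FPKM in DNAM-1- cells, and the lower ones 3.88 and 16.2 FPKM.

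**Figure D1:**
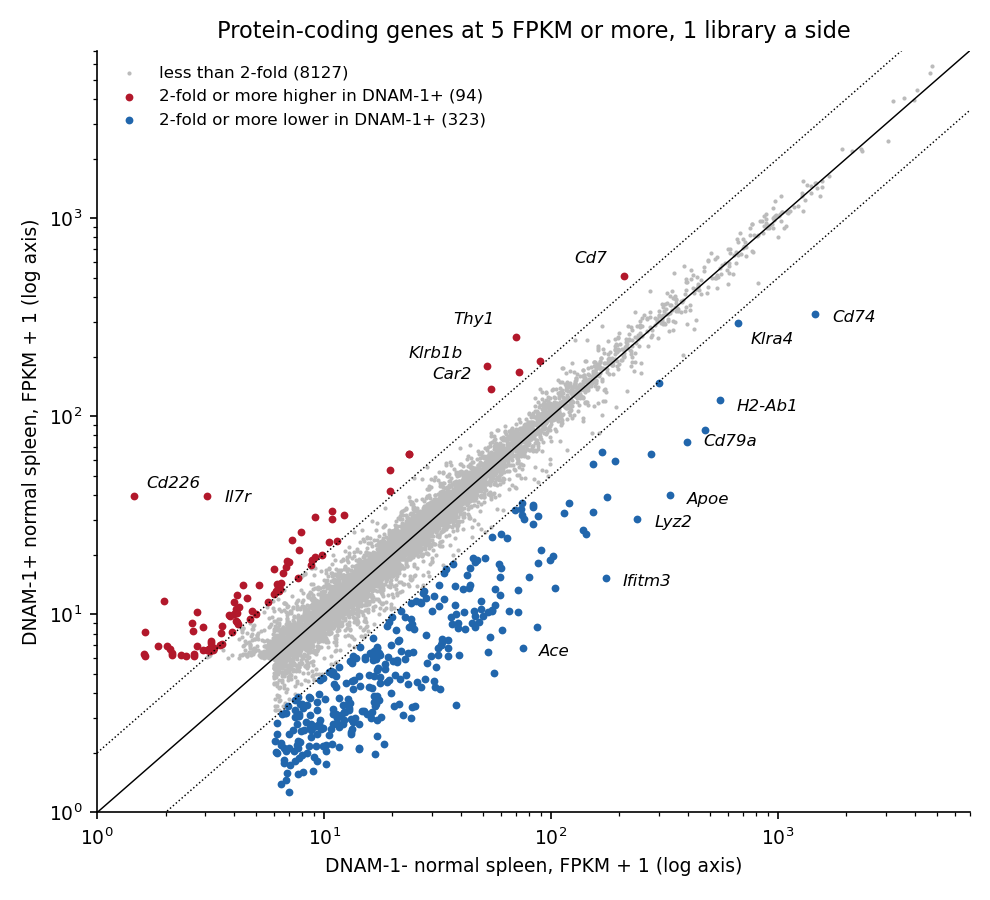
FPKM + 1 of each protein-coding gene in the DNAM-1- (x) and DNAM-1+ (y) library of normal spleen, both on log axes, for the 8544 genes compared. The solid line marks equal levels and the dotted lines 2-fold. The 94 genes in red lie at least 2-fold above, led by Cd226 and Il7r, and the 323 in blue at least 2-fold below.

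The threshold of 5 FPKM left genes of nearly the same level on either side. Il1rap (4.94 against 5 FPKM), Mrpl11 (5 against 4.99), Pradc1 (3.90 against 5) and Sfmbt1 (4.51 against 5) lay just inside. Dpy19l3 (4.99 against 4.36), Ell3 (1.87 against 4.99), Mtrf1l (4.99 against 4.15) and Spaca9 (4.19 against 4.99) lay just outside. Ell3 would have been counted as at least 2-fold lower, with a log2 ratio of -1.06.

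Both libraries carried the RNA of NK cells. Of 20 NK lineage genes, all compared, 1 was at least 2-fold higher and 0 lower in the DNAM-1+ library, with a median log2 ratio of 0.20. Ncr1, the natural cytotoxicity receptor NKp46, was at 573 FPKM in DNAM-1+ and 383 FPKM in DNAM-1- cells. Eomes was at 221 and 211 FPKM, and Prf1, which encodes perforin, at 498 and 528 FPKM. The member at least 2-fold higher was Cd7, a surface glycoprotein of NK and T cells, at 509.8 against 209 FPKM (log2 1.28). The labelled cell type was thus present on both sides of the sort by its defining genes, and markers of other cells, given further below, were present too.

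After Cd226 and Il7r, the highest ratios belonged to genes of modest level. Podnl1, a leucine-rich repeat protein, was at 10.7 against 0.97 FPKM (log2 2.57), and Apol7b, of the apolipoprotein L family, at 7.11 against 0.63 FPKM (log2 2.31). Cd200r1, an inhibitory receptor, was at 5.31 against 0.61 FPKM, and Acpp, prostatic acid phosphatase, at 5.18 against 0.62 FPKM. Each of these 4 was below 1 FPKM in DNAM-1- cells. Ikzf2, the transcription factor Helios, was at 5.70 against 1.10 FPKM, Socs2, a feedback inhibitor of cytokine signalling, at 7.27 against 1.63 FPKM, and Ckb, brain-type creatine kinase, at 11.5 against 3.15 FPKM. Of the 20 genes with the highest ratios, 18 were 2-fold or more above the DNAM-1- level in AML spleen as well, of which 17 reached 5 FPKM there. Further down the 94, and picked after their values were seen, were the adhesion receptor Adgrg5 (15.98 against 5.01 FPKM), the protease inhibitor Serpina3f (16.2 against 5.81 FPKM), the receptor Klri1 (22.1 against 9.53 FPKM) and the Notch ligand Dll1 (5.16 against 1.46 FPKM).

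Genes listed for the CD27-positive stage were mostly higher in DNAM-1+ cells, 16 of 19 with a log2 ratio above 0. Of 19 members at 5 FPKM or more, 7 were at least 2-fold higher and 0 lower, with a median log2 ratio of 0.80, beside 0.01 over all genes. Besides Il7r, Podnl1 and Thy1, these were Itga1 (integrin alpha-1, 5.36 against 1.13 FPKM), Cd160 (a receptor for HVEM and MHC class I, 63.8 against 22.7 FPKM), Cxcr3 (a chemokine receptor, 41.0 against 18.5 FPKM) and Kit (the stem cell factor receptor, 17.9 against 7.86 FPKM). This list was chosen with earlier results of these data known. Il7r and Thy1 were the markers given for this pair, and Podnl1 was among its highest ratios. Their calls are thus no separate evidence for a stage. Genes of the CD11b-positive mature stage gave 0 of 20 members at least 2-fold higher and 0 lower, with a median of -0.12. Their most abundant members, Lgals1 (1226 against 973 FPKM), Tyrobp (1001 against 947 FPKM) and Klra8 (467 against 819 FPKM), did not share a direction.

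The members of a list drawn up for type 1 innate lymphoid cells and tissue residency split. Of 12 at 5 FPKM or more, 6 were at least 2-fold higher and 2 lower, with a median of 0.59. Higher members that the CD27 list does not hold were Cd200r1 and Tnfsf10, which encodes the death ligand TRAIL and was at 9.92 against 3.20 FPKM (log2 1.38). The lower members were Il21r (15.2 against 32.6 FPKM) and Ccr6 (1.71 against 10.7 FPKM). The log2 ratio of Ccr6, -2.11, was near the B cell marker median of -2.17. Any part of B cell RNA in these 2 lower ratios was not tested. Cxcr6 (3.27 against 0.30 FPKM) and Rora (4.29 against 0.81 FPKM) were higher in DNAM-1+ cells below the 5 FPKM level, and Zfp683, which encodes Hobit, was at 0 in both libraries, as a gene that a library does not list was taken as 0. Cxcr6 and Zfp683 were named after their values were seen.

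The other members of the DNAM-1 family stood far closer to equality than Cd226. Cd96, which encodes a receptor for CD155, was at 45.2 against 32.3 FPKM (log2 0.47), and Tigit, its inhibitory counterpart, at 24.1 against 30.9 FPKM (log2 -0.35). Crtam, a receptor for the adhesion protein Necl-2, was at 30.8 against 24.5 FPKM (log2 0.32). The ligand genes were low in both libraries: Pvr, encoding CD155, was at 3.27 and 2.66 FPKM, Nectin2, encoding CD112, at 0.16 and 0.12 FPKM, Nectin3 at 0.28 and 0.04 FPKM, and Nectin1 at 0.19 and 1.67 FPKM. Pvrig was listed in neither library and was taken as 0.

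Among 20 activating and costimulatory receptors, 2 were at least 2-fold higher (Cd160, and Icos at 5.60 against 2.12 FPKM) and 1 lower (Klra4), with a median of 0.35. Klrk1, which encodes NKG2D, was at 419.7 against 324 FPKM (log2 0.37), and Cd2, an adhesion receptor, at 474 against 395 FPKM (log2 0.26). Of 16 inhibitory receptors, 11 had a log2 ratio below 0 and 5 above, with a median of -0.70. In the DNAM-1+ library 7 of the 16 were lower by 2-fold or more and 2 higher. Over all genes compared these shares were 3.78% and 1.1%. The 2 higher were Cd200r1 and Klrb1b, described with its family. The 7 lower were Ceacam1 (1.99 against 23.2 FPKM), Sirpa (4.69 against 27.4), Siglecg (8.06 against 43.9), Btla (9.27 against 40.3), Havcr2 (1.41 against 7.78), Pilra (4.36 against 16.2) and Cd300a (6.03 against 18.6). Siglecg is a B cell gene and Sirpa a myeloid gene in the marker lists described below. The other lower receptors are in none of those lists, with log2 ratios from -3.02 (Ceacam1) to -1.48 (Cd300a). The medians were -2.17 for B cell markers and -2.32 for monocyte lineage markers. Any part of RNA from other cells in the 7 lower ratios was not tested. Klrc1, encoding the inhibitory receptor NKG2A, was higher at 240.3 against 127 FPKM (log2 0.92), while Klrc2, encoding its activating relative NKG2C, was at 269 against 331 FPKM (log2 -0.30).

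The Ly49 receptors, which the Klra genes encode and many of which bind MHC class I, divided by member. Klra4 (Ly49D, activating) was at 295 FPKM in DNAM-1+ and 667 FPKM in DNAM-1- cells, a log2 ratio of -1.17. Klra8 (Ly49H, activating, receptor of a cytomegalovirus protein) was at 467 against 819 FPKM (log2 -0.81), and Klra10 (Ly49J, inhibitory) at 51.9 against 94.3 FPKM (log2 -0.85). These 3 were lower in DNAM-1+ cells in both spleens, with log2 ratios in AML spleen of -1.22 for Klra4, -0.94 for Klra8 and -0.92 for Klra10. Klra2 (Ly49B, inhibitory) had the ratio farthest from 0, at 0.91 against 8.06 FPKM (log2 -2.25). This was near the median of the monocyte lineage markers (-2.32), and any part of monocyte RNA in it was not tested. Other inhibitory members were nearer to 0: Klra9 (Ly49I) was at 284 against 218 FPKM, Klra7 (Ly49G) at 326 against 322, Klra3 (Ly49C) at 162 against 145 and Klra1 (Ly49A) at 42.5 against 38.1 FPKM, the last 3 of which changed side when the NK lineage genes were scaled to be equal. Klra6 was at 24.0 against 26.3 FPKM, Klra17 at 1.29 against 1.81 FPKM and Klra5 at 16.1 against 9.51 FPKM. Of the 10 members at 5 FPKM or more, 0 were at least 2-fold higher and 2 lower. Members of this family are near-identical in sequence, so reads can be assigned to the wrong one and single values are uncertain.

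In the neighbouring NKR-P1 family, whose members bind C-type lectin ligands of the Clr group, Klrb1b stood apart. This inhibitory receptor was at 178 FPKM in DNAM-1+ and 51.4 FPKM in DNAM-1- cells (log2 1.77). Klrb1f (136 against 88.7 FPKM, log2 0.61) and Klrb1a (84.3 against 57.0 FPKM, log2 0.56) were higher by less, and Klrb1c, which encodes NK1.1, was at 369.7 against 318 FPKM (log2 0.22). Klrb1 was at 11.2 against 13.5 FPKM. The ligand genes Clec2d (50.5 against 37.8 FPKM) and Clec2i (26.6 against 26.6 FPKM) were expressed on both sides, and Clec2h, Clec2g, Clec2f and Clec2e were each below 3 FPKM in both. Of 7 members at 5 FPKM or more, 1 was at least 2-fold higher and 0 lower. These genes too are similar in sequence.

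**Figure D2:**
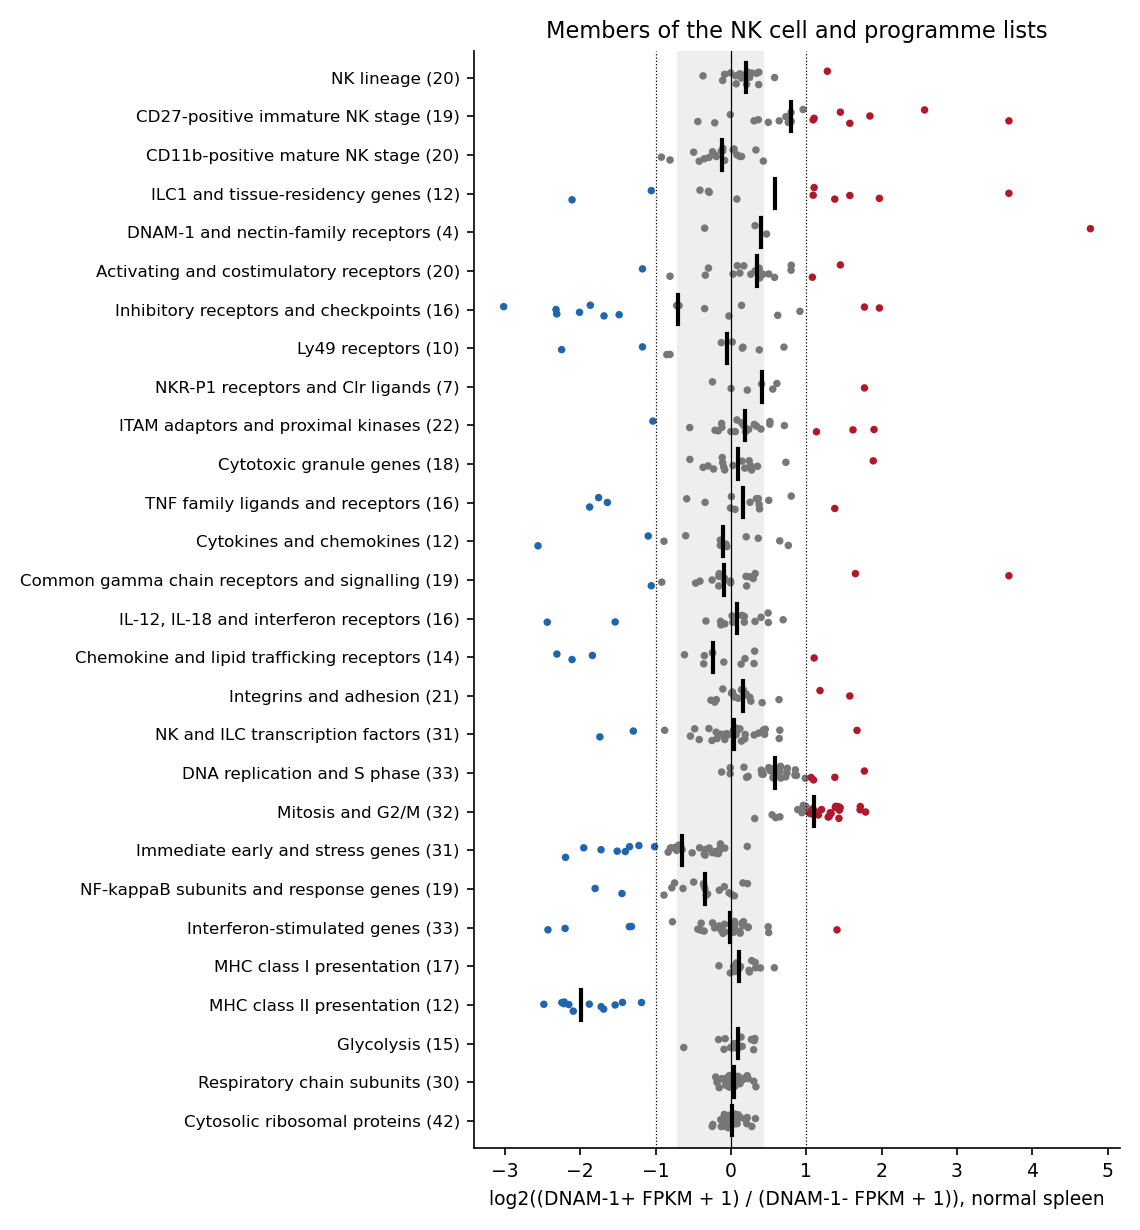
Log2 ratio of DNAM-1+ over DNAM-1- in normal spleen for each member at 5 FPKM or more of 28 lists, with the number of such members in parentheses. Points are genes (red and blue, at least 2-fold), black bars are list medians, and the shaded band spans the 5th to 95th percentile of all 8544 genes. The bar lies at 1.11 for mitosis genes and at -1.98 for MHC class II genes, the outermost of the 28.

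Of the signalling proteins behind these receptors, 22 were at 5 FPKM or more. Of these, 3 were at least 2-fold higher, all subunits of the T cell receptor complex: Cd3e (9.22 against 1.74 FPKM), Cd3g (32.4 against 9.87 FPKM) and Cd3d (12.8 against 5.29 FPKM). The 1 member at least 2-fold lower was Lyn, a kinase abundant in B cells and myeloid cells, at 35.5 against 73.8 FPKM (log2 -1.03). The adaptors that NK receptors use were at similar levels, with Tyrobp (DAP12) as above, Fcer1g at 673 against 778 FPKM and Cd247 (CD3 zeta) at 183 against 162 FPKM. Among the kinases, Lck was at 336 against 234 FPKM (log2 0.52) and Syk at 93.5 against 137 FPKM (log2 -0.55). The names of Syk and Cd247 were picked after their values were seen.

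Other T cell genes accompanied the CD3 genes in part. Of 11 T cell markers at 5 FPKM or more, 4 were at least 2-fold higher (the 3 CD3 genes, and Trat1, an adaptor of the receptor complex, at 5.93 against 1.03 FPKM) and 1 lower (Ccr7), with a median of 0.80. The summed level of the list was 368 FPKM in DNAM-1+ and 239 FPKM in DNAM-1- cells. Of this, Tcf7, also a member of the CD27 list, held 173 and 111 FPKM, so the sum does not measure T cell RNA. Cd4 was at 1.29 and 1.30 FPKM, Cd5 at 1.00 and 0.27 FPKM, Cd6 at 0.48 and 0.08 FPKM, Cd8a at 3.70 and 2.17 FPKM and Cd8b1 at 2.28 and 5.32 FPKM. These defining genes of mature T cells were chosen after their values were seen. The constant genes of the T cell receptor chains were listed in none of the 4 libraries and were not analysed here. Any share of T cells in the CD3 ratio was not tested.

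Cytotoxic genes were even between the fractions. Of 18 at 5 FPKM or more, 1 was at least 2-fold higher and 0 lower, with a median of 0.09. The exception was Gzmc, encoding granzyme C, at 5.89 against 0.86 FPKM (log2 1.89), on an estimated 47.7 and 6.67 reads. Gzma was at 3885 against 3209.5 FPKM, Gzmb at 503 against 542 FPKM, Gzmk at 16.9 against 9.81 FPKM and Gzmm at 9.78 against 8.11 FPKM. Gzmd, Gzme and Gzmf were listed in neither library and were taken as 0, and Gzmg was at 0.12 FPKM in DNAM-1- cells and not listed in DNAM-1+ cells. Of the granule proteases and serpins, Ctsd (622 against 525 FPKM), Ctsw (473 against 393), Serpinb6b (138 against 108) and Serpinb9 (89.1 against 87.4) were on the DNAM-1+ side (Serpinb9 not with the NK lineage genes scaled to be equal), and Ctsc (28.8 against 35.8) and Ctsl (1.35 against 2.01) on the DNAM-1- side. Genes of granule transport and release, Rab27a (60.2 against 52.8 FPKM), Unc13d (51.4 against 46.3), Stx11 (17.6 against 19.1), Lamp2 (21.6 against 25.5) and Srgn (295 against 315), lay close to equality. Nkg7 (464 against 600.3 FPKM, log2 -0.37) and Lamp1 (74.4 against 109 FPKM, log2 -0.54) were the members farthest to the DNAM-1- side.

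The receptors of the common gamma chain family differed mainly in Il7r. Il2rb, the beta chain shared by IL-2 and IL-15, was at 784 against 659.6 FPKM, and Il2rg, the gamma chain itself, at 375 against 376 FPKM. Il2ra (5.44 against 4.24 FPKM) and Il15ra (8.67 against 9.77 FPKM) were low in both. Il21r (log2 -1.06), Il4ra (16.7 against 32.5 FPKM, log2 -0.92) and Il9r (1.40 against 4.90 FPKM) were lower in DNAM-1+ cells. Downstream, Jak1 (396 against 342 FPKM), Jak3 (52.1 against 45.2), Stat5a (16.2 against 16.2), Stat5b (29.5 against 31.4), Stat3 (66.6 against 79.3) and Stat6 (78.9 against 88.2) were within 1.5-fold. The feedback inhibitors were not alike: Socs2 was the only one at least 2-fold higher, Socs1 was at 20.4 against 16.1 FPKM, Cish at 4.51 against 3.44 FPKM and Socs3 at 21.2 against 28.5 FPKM. The survival genes Bcl2 (40.5 against 43.1 FPKM), Mcl1 (115 against 159.8) and Pim1 (122 against 137) were on the DNAM-1- side. In all, 2 of 19 members were at least 2-fold higher and 1 lower.

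Transcription factors were mostly even as well: of 31 at 5 FPKM or more, 1 was at least 2-fold higher and 2 lower, with a median of 0.04. The 1 higher was Ikzf2. The 2 lower were Irf4 (3.33 against 13.4 FPKM, log2 -1.74) and Bcl6 (11.4 against 29.4 FPKM, log2 -1.29). Irf4 is also a factor of plasma cells, and Bcl6 of germinal centre B cells. Id2 (425 against 271 FPKM, log2 0.65), Tcf7 (173 against 111, log2 0.64), Lef1 (29.4 against 21.1), Maf (10.9 against 7.72), Gata3 (36.2 against 26.6), Tbx21 (218 against 169) and Tox (21.5 against 17.1) were higher by less than 2-fold. Id3 (4.02 against 8.23 FPKM), Bach2 (12.97 against 19.3), Nfil3 (22.2 against 31.3), Irf8 (185 against 248), Zeb2 (38.5 against 47.4) and Hhex (38.8 against 46.4) were lower by less than 2-fold. Tox2 was at 0.20 and 0.34 FPKM. The remaining members at 5 FPKM or more lay between log2 -0.20 and 0.19: Ets1, Runx1, Runx2, Runx3, Irf1, Irf2, Prdm1, Myb, Ikzf1, Ikzf3, Zbtb16, Zeb1, Klf2, Foxo1 and Eomes.

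Secreted factors and receptors for other signals held a few large ratios. Xcl1, a chemokine for cross-presenting dendritic cells, was at 284 against 167 FPKM (log2 0.76), and Ccl5 was at 5390.0 against 4682 FPKM. Ccl6 (3.73 against 26.9 FPKM) and Ccl9 (4.41 against 10.6 FPKM) were the 2 of 12 cytokines and chemokines at least 2-fold lower. Il6ra (1.15 against 10.6 FPKM) and Ifngr2 (6.39 against 20.4 FPKM) were those lower by as much among 16 genes of IL-12, IL-18 and interferon reception. In the TNF family, Tnfrsf13b (3.29 against 14.7 FPKM), Tnfrsf13c (10.1 against 36.6) and Cd40 (1.81 against 7.75), all receptors of B cells, were at least 2-fold lower, and Tnfsf10 was the 1 member higher. Tnfrsf25, the death receptor DR3, lay below the 5 FPKM level at 4.55 against 0.14 FPKM (log2 2.28) and was named after its value was seen. Of 14 trafficking receptors, Cxcr3 was at least 2-fold higher, and Ccr7 (2.99 against 18.8 FPKM), Ccr6 and Cxcr5 (6.89 against 27.2 FPKM) were lower. Cxcr5 is also in the B cell list, and Ccr7 in the T cell and dendritic cell lists. Any part of RNA from other cells in the lower ratios of these chemokine, cytokine receptor and trafficking genes was not tested. Of 21 adhesion genes, Itga1 and Itgb3 (integrin beta-3, 8.26 against 3.08 FPKM) were at least 2-fold higher and 0 lower.

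Cell cycle genes made up 25 of the 94 higher genes, more than any other list held. Of 32 mitosis and G2/M genes at 5 FPKM or more, all 32 were above 0, 21 were at least 2-fold higher and 0 lower, and the median log2 ratio was 1.11. Their median level was 13.3 FPKM in DNAM-1+ and 5.62 FPKM in DNAM-1- cells. Mki67, the proliferation antigen Ki-67, was at 63.2 against 22.7 FPKM (log2 1.44), Top2a, topoisomerase II alpha, at 52.6 against 18.6 FPKM (log2 1.45), and Birc5, survivin, at 25.02 against 6.93 FPKM (log2 1.71). Cdk1, the mitotic kinase, was at 8.01 against 1.61 FPKM (log2 1.79, interval 1.30 to 2.28), Ccna2, cyclin A2, at 20.02 against 6.78 FPKM and Ccnb2, cyclin B2, at 17.6 against 5.88 FPKM. Cdca3, which triggers mitotic entry, was at 22.8 against 6.25 FPKM and Kif11, a spindle motor, at 17.4 against 6.03 FPKM. The smallest ratios were those of Racgap1 (53.4 against 36.2 FPKM) and Hmmr (9.46 against 7.40 FPKM).

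Replication genes were higher by less. Of 33 at 5 FPKM or more, 4 were at least 2-fold higher and 0 lower, with a median of 0.59, and 30 were above 0. The 4 were Rrm2, a ribonucleotide reductase subunit (30.2 against 8.13 FPKM, log2 1.77), Clspn, claspin (9.64 against 3.09 FPKM), Uhrf1, which maintains DNA methylation (18.4 against 8.07 FPKM), and Chaf1a, a chromatin assembly factor (11.6 against 5.04 FPKM). Abundant members differed less: Pcna was at 151 against 107 FPKM (log2 0.50) and Mcm6 at 61.9 against 41.9 FPKM (log2 0.55). E2f8, a repressor of the E2F family that is in no list, was at 13.02 against 3.38 FPKM (log2 1.68). Other growth-associated genes outside the lists, picked after their values were seen, were Pclaf, a PCNA-binding factor (29.4 against 9.86 FPKM), Stmn1, which destabilises microtubules (167 against 71.4 FPKM), and Hmgb2, a chromatin protein (189.9 against 88.8 FPKM).

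**Figure D3:**
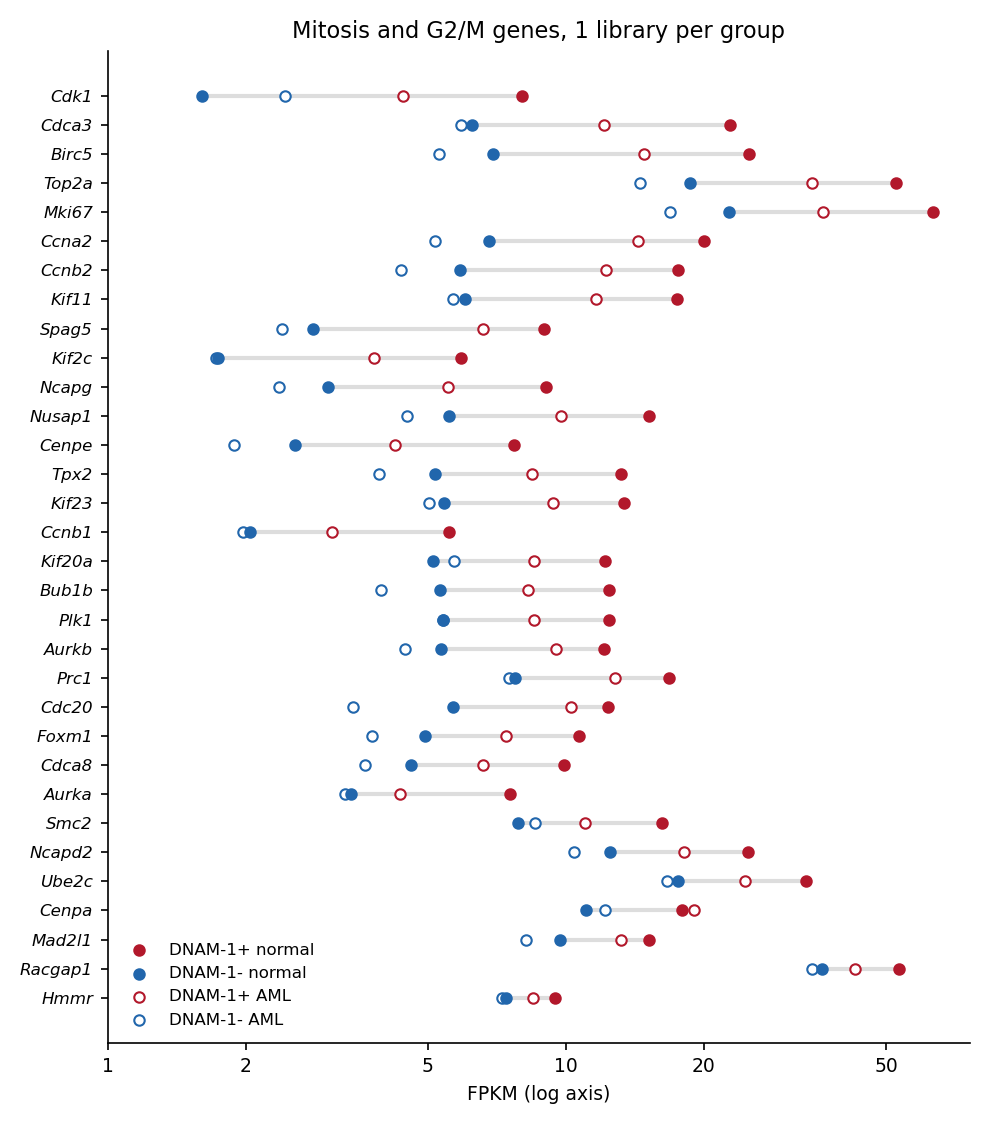
FPKM on a log axis of the 32 mitosis and G2/M genes at 5 FPKM or more, ordered by their ratio in normal spleen. Filled points and grey bars are normal spleen, open points AML spleen, red DNAM-1+ and blue DNAM-1- (1 library each). The red point lies to the right of the blue one for every gene in both spleens, and the spread is widest for Cdk1.

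Promoters of the mitosis genes are shown to describe the list. Sequence elements in them follow from which genes the list holds, and do not address why these genes were higher. The 250 bases upstream of the start site were taken from the RefSeq promoter table of GRCm38.p6, using the first entry per gene, and 27 of the 32 mitosis genes had one. A pair of short elements known in promoters of late cell cycle genes was searched on both strands: the CCAAT box as CCAAT, and the cell cycle homology region (CHR) as TTTGAA and, in a variant form, TTCGAA. A match of one may share an end letter with a match of the other. Both are in capitals in the promoters of Cdk1 (chr10:69352913-69353162, minus strand), Ccnb2 (chr9:70421555-70421804, minus strand) and Top2a (chr11:99024190-99024439, minus strand), written in the direction of transcription:
Cdk1: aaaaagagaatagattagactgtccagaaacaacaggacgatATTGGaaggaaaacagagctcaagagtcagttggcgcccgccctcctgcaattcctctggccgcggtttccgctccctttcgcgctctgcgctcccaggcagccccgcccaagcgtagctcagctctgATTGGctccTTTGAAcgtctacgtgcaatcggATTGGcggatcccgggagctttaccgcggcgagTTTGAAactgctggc
Ccnb2: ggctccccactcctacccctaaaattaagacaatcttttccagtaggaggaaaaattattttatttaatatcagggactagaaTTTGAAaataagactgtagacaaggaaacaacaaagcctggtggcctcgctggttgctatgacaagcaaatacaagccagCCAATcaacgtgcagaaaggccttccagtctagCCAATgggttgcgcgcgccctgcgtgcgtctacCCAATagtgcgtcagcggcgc
Top2a: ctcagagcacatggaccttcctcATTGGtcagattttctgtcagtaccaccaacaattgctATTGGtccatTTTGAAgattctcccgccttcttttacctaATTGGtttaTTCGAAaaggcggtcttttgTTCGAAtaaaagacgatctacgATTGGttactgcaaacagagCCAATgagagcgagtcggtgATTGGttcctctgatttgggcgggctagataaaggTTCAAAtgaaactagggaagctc

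The Cdk1 window held 3 CCAAT boxes and 2 CHR words, that of Ccnb2 held 3 and 1, and that of Top2a held 6 and 4. A CCAAT box was found in 23 of the 27 mitosis promoters (85.2%) and in 36.6% of the 6992 promoters of all compared genes that had an entry. A CHR word was found in 12 of the 27 (44.4%), beside 12.5% of all. Among 29 replication genes with an entry, 58.6% held a CCAAT box and 17.2% a CHR word. Of 14 NK lineage promoters, 35.7% held a CCAAT box and 21.4% a CHR word, and of 17 B cell marker promoters 29.4% and 11.8%. E2F words (TTTCCCGC, TTTGGCGC, TTTCGCGC and TTTGCCGC) were searched in the same way and are not marked above. They were found in 17.2% of replication, 7.41% of mitosis and 3.83% of all promoters, and in 0% of NK lineage and B cell marker promoters. A match describes these letters in this window and does not show a bound factor.

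Opposite to the cell cycle, the 323 lower genes were led by genes of monocytes and macrophages. Of the 20 lowest ratios, 14 belonged to the 3 monocyte and macrophage marker lists, 1 to the plasma cell list and 0 to the B cell list. Ifitm3, an interferon-induced membrane protein, was at 14.3 FPKM in DNAM-1+ and 174 FPKM in DNAM-1- cells (log2 -3.52), but shares sequence with Ifitm2 (7.64 against 85.5 FPKM). Ace, angiotensin-converting enzyme, was at 5.75 against 74.0 FPKM (log2 -3.47), and Ear2, an eosinophil-type ribonuclease also made by monocytes, at 4.08 against 55.2 FPKM (log2 -3.47). Apoe, apolipoprotein E, was at 38.8 against 334 FPKM (log2 -3.07), Lyz2, lysozyme, at 29.3 against 239 FPKM (log2 -2.99), and Csf1r, the receptor of macrophage colony-stimulating factor, at 7.31 against 59.7 FPKM (log2 -2.87). Lowest ratios outside the marker lists of other cells were those of Nupr1 (2.48 against 37.1 FPKM), Ifitm2, Ceacam1, Krt80 (2.39 against 23.3 FPKM) and Lst1 (6.71 against 53.1 FPKM).

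By list, 11 of 15 non-classical monocyte markers were at least 2-fold lower and 0 higher, with a median log2 ratio of -2.82. The 4 that were not are also expressed by NK cells: Spn (382 against 371 FPKM), Itgax (226 against 243 FPKM), Pglyrp1 (112 against 92.0 FPKM) and Cx3cr1 (35.5 against 42.2 FPKM). Cx3cr1 was named after its value was seen. Of 17 markers of the monocyte lineage 15 were lower (median -2.32), and of 12 tissue macrophage markers 11 were lower (median -1.43), among them Fabp4 (1.22 against 17.4 FPKM), Adgre1 (F4/80, 1.16 against 8.17 FPKM) and C1qa (3.88 against 15.6 FPKM). Summed over the lists, non-classical monocyte markers came to 867 FPKM in DNAM-1+ and 1283 FPKM in DNAM-1- cells, monocyte lineage markers to 408 and 1160 FPKM, and macrophage markers to 101 and 519 FPKM. The 4 genes also expressed by NK cells made up most of both non-classical sums, which therefore do not measure monocyte RNA. The monocyte lineage sums include Ccr2 (122 against 98.4 FPKM), also a member of the CD27 list. No member of these 3 lists was at 0 in either library.

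B cell markers formed a tight group. Of 23 at 5 FPKM or more, 21 were lower by 2-fold or more and 0 higher, with a median log2 ratio of -2.17 and quartiles of -2.31 and -1.89. Cd79a and Cd79b, the signalling chains of the B cell receptor, were at 73.0 against 395 FPKM and 38.1 against 176 FPKM. Ms4a1, which encodes CD20, was at 20.2 against 89.5 FPKM, and Pax5, the B lineage factor, at 10.7 against 48.0 FPKM. The 2 members within 2-fold were Cd37 (167 against 231 FPKM) and Cd72 (100.3 against 166 FPKM). The list summed to 600 FPKM in DNAM-1+ and 2041 FPKM in DNAM-1- cells, 0.143% and 0.489% of the FPKM of all protein-coding genes. No B cell marker that the files list was at 0 in either library. Ighm and Ighd were listed in none of the 4 libraries and were not analysed here. Of 6 plasma cell markers at 5 FPKM or more, 3 were at least 2-fold lower and 0 higher, with a median of -1.05. The 3 were Jchain (12.6 against 103 FPKM), Mzb1 (3.59 against 29.4 FPKM) and Irf4. Of the 6, 2 lay above 0, the highest at a log2 ratio of 0.12.

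**Figure D4:**
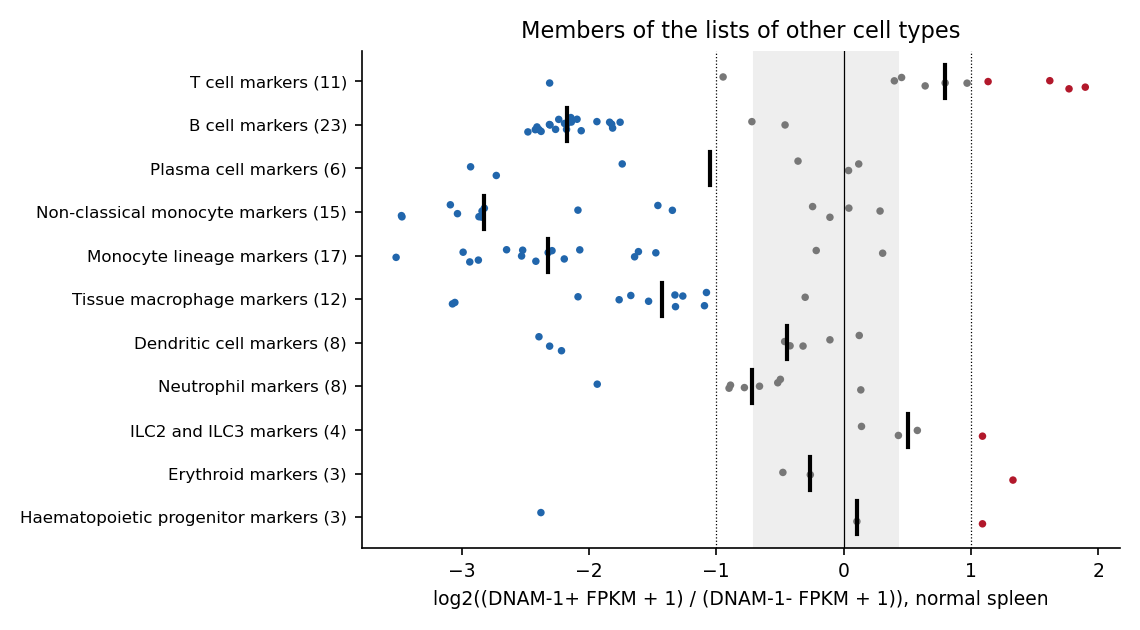
Log2 ratio of DNAM-1+ over DNAM-1- in normal spleen for each member at 5 FPKM or more of the lists of other cell types that have 3 or more such members. Points, bars and band are drawn as for the NK lists. B cell markers cluster around -2.17, non-classical monocyte markers around -2.82 with 4 members near 0, and T cell markers lie mostly to the right.

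MHC class II genes, which present peptides to CD4 T cells and are expressed by B cells, dendritic cells and macrophages, were lower in DNAM-1+ cells without exception among the 12 at 5 FPKM or more. All 12 were at least 2-fold lower, with a median log2 ratio of -1.98. Cd74, the invariant chain, was at 328 against 1458 FPKM, H2-Ab1 at 119 against 556 FPKM, H2-Aa at 84.1 against 474 FPKM and H2-Eb1 at 63.7 against 274 FPKM. Ciita, the coactivator of the class II genes, was at 5.35 against 22.4 FPKM. MHC class I genes, in contrast, gave 0 of 17 at least 2-fold apart and a median of 0.11, with B2m at 3967 against 3987 FPKM. The class II median of -1.98 lay between those of the macrophage list (-1.43) and the B cell list (-2.17). Whether RNA of those cells made the class II difference was not tested. In a bulk library, fewer cells of a type and less RNA per cell cannot be told apart.

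Remaining marker lists differed less. Dendritic cell markers gave 3 of 8 at least 2-fold lower, all also expressed by B cells or T cells (Ly6d, Ccr7 and H2-DMb2), while Itgax and Irf8 were within 1.5-fold. Neutrophil markers had a median of -0.72 with 1 of 8 at least 2-fold lower (Csf3r, 3.25 against 15.2 FPKM) and S100a9 at 42.9 against 68.3 FPKM. Car2, carbonic anhydrase 2, listed as an erythroid marker, was higher at 136 against 53.4 FPKM (log2 1.33), while the haemoglobin gene Hba-a1 was at 6.41 and 9.31 FPKM and Klf1, an erythroid factor, was listed in neither library. Itgb3 was the one platelet marker at 5 FPKM or more, and Pf4, a platelet chemokine, was at 0.18 and 0 FPKM. Klf1 and Pf4 were named after their values were seen. Endothelial and stromal markers were below 1 FPKM in both libraries except Pecam1 (45.9 against 41.5 FPKM).

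Immediate early and stress genes were on the low side too. Of 31 at 5 FPKM or more, 8 were at least 2-fold lower and 0 higher, 30 were below 0, and the median was -0.65. The heat shock genes Hspa1a (14.4 against 58.7 FPKM, log2 -1.95) and Hspa1b (35.3 against 119 FPKM, log2 -1.72), which are near-identical, were joined by Klf4 (3.71 against 20.6 FPKM), Atf3 (5.21 against 16.7), Fos (18.3 against 49.9), Nr4a1 (65.1 against 167), Fosb (11.1 against 27.2) and Zfp36 (147 against 297). The abundant Junb was at 525 against 608 FPKM (log2 -0.21) and Jund at 208 against 234 FPKM. Klf4 and Nr4a1 are also members of the monocyte lists, whose medians were -2.32 and -2.82, and the part of monocyte RNA in these ratios was not tested. Of 19 NF-kappaB genes, Cd83 (4.31 against 17.5 FPKM) and Bcl2a1d (5.39 against 16.4 FPKM) were at least 2-fold lower and 0 higher, with a median of -0.34, and the subunit gene Nfkb1 was even (84.4 against 85.8 FPKM).

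Interferon-stimulated genes centred on 0, with a median of -0.01 over 33 members. Ly6a, the Sca-1 antigen (9.70 against 48.2 FPKM), Oas2 (2 against 15.1), Oasl2 (5.74 against 16.1) and Ifi27l2a (29.3 against 74.7) were at least 2-fold lower, and Tgtp1, an interferon-induced GTPase, was higher (5.21 against 1.34 FPKM). Housekeeping programmes were level: 0 of 15 glycolysis genes, 0 of 30 respiratory chain genes and 0 of 42 cytosolic ribosomal protein genes were at least 2-fold apart, with medians of 0.09, 0.04 and 0.01. Gapdh was at 758 against 712 FPKM and Rps23 at 2177 against 2344 FPKM.

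The same ratios were taken in the AML pair, a pair of libraries the rule did not use. There, 55 of 8478 genes (0.649%) were higher by 2-fold or more on the DNAM-1+ side and 259 (3.05%) lower. Of the 94 genes higher in normal spleen, 92 were on the same side in AML spleen and 47 at least 2-fold higher, 44 of them with 5 FPKM or more there. Of the 323 lower genes, 323 were on the same side and 253 at least 2-fold lower, 241 of them with 5 FPKM or more there. None of either set was 2-fold or more apart in the opposite direction. The share on the same side over all genes compared was not counted. The higher genes had a median log2 ratio of 1.30 in normal spleen and 1.01 in AML spleen, the lower genes of -1.85 and -1.53. The set was chosen on normal spleen, so its ratios there are the larger by choice.

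Single genes show what was shared and what was not. Cd226 was at 36.1 against 0.58 FPKM in AML spleen (log2 4.55), Il7r at 38.6 against 2.10 FPKM (log2 3.68) and Thy1 at 228 against 72.0 FPKM (log2 1.65), each close to its normal values. Klrb1b gave 1.61 and Cd7 1.27 in AML spleen. The 2 genes of the 94 that were not on the same side were Amer2, at 13.1 against 4.18 FPKM in normal spleen and listed in neither AML library, and the predicted gene Gm12657. They were named after their values were seen.

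By list, the CD27-positive stage had a median of 0.80 in normal spleen against 0.90 in AML spleen, and MHC class II -1.98 and -1.71. For the 32 mitosis and G2/M genes at 5 FPKM or more in normal spleen the median was 1.11 there and 0.82 in AML spleen, with 21 and 7 of them at least 2-fold higher. In AML spleen 27 of the list reached 5 FPKM, with a median of 0.90. Of the 32, 30 were closer to 0 in AML spleen. These 32 reached 5 FPKM in normal spleen, some only in the DNAM-1+ library. Smaller ratios in AML spleen can thus come partly from that choice. The median level of the 32 in DNAM-1+ cells was 13.3 FPKM in normal spleen against 9.62 FPKM in AML spleen. In DNAM-1- cells it was 5.62 and 5.10 FPKM. Immediate early genes had medians of -0.65 and -0.19, and 28 of their 31 members were closer to 0 in AML spleen. The heat shock genes were lower in both AML libraries than in both normal ones: Hspa1b was at 3.97 (DNAM-1+) and 10.3 FPKM (DNAM-1-), with a log2 ratio of -1.18. Differences between the spleens rest on 1 library per group and were not tested.

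**Figure D5:**
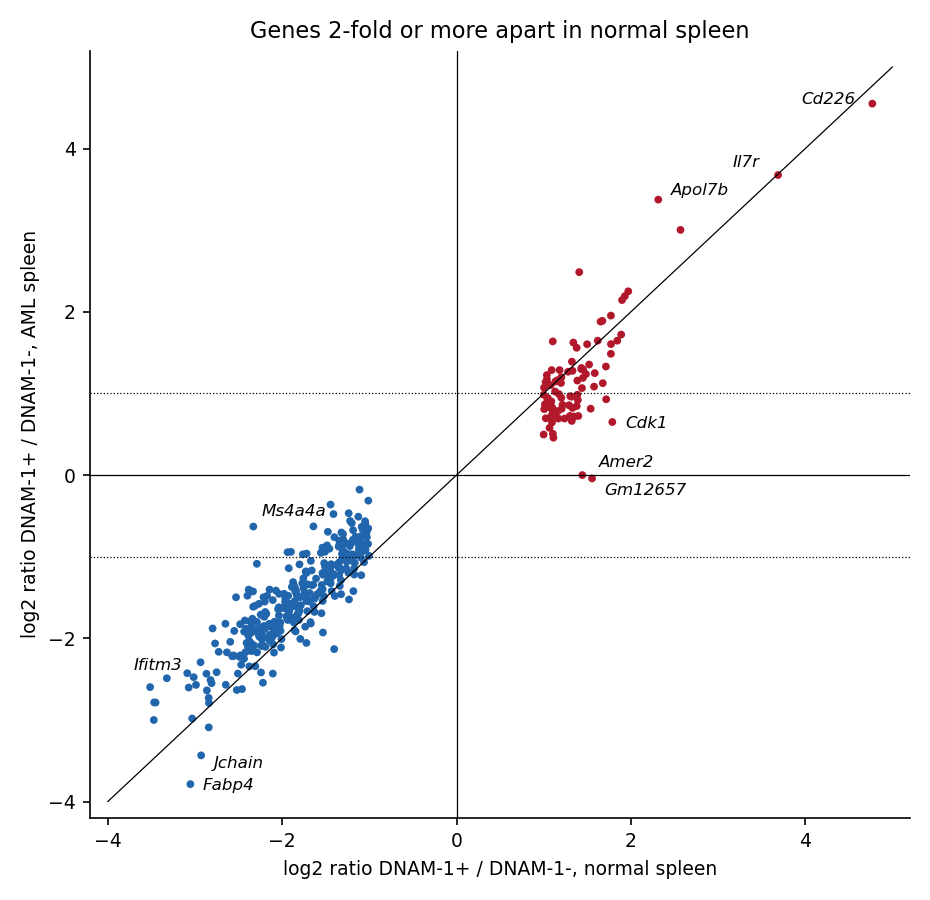
Log2 ratio of DNAM-1+ over DNAM-1- in AML spleen (y) against normal spleen (x) for the 94 higher (red) and 323 lower (blue) genes of normal spleen. The solid diagonal marks equal ratios and the dotted lines 2-fold in AML spleen. All blue points lie below 0 and all red points above it except Amer2 and Gm12657.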

How the data were processed

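RNA of NK cells sorted by DNAM-1 from mouse spleen was sequenced on the BGISEQ-500 platform, per the labels' protocols. Per the file headers, the authors deposited FPKM, given under NCBI Gene numbers. Bowtie2 2.2.5 and RSEM are named in the submitters' processing notes. Their role, the genome build and the annotation are not given in the sources used here. Each file lists only genes above 0, and a gene not listed was taken as 0.

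Gene numbers were matched to the RefSeq table of GRCm38.p6 (17668 of 17723 matched). The log2 ratio with a pseudocount of 1 FPKM was computed with Python 3.11.15, pandas 2.3.3 and numpy 2.4.6 for protein-coding genes that reached 5 FPKM on either side, and counted at 2-fold. No test was run, because each group holds 1 library. Depth was estimated from the FPKM steps of microRNA genes between 55 and 100 nt long. In the 2 normal libraries 90.7% and 90.3% of their values fell within 0.1 of whole read numbers of at most 6. Depth and a length offset were searched within a set range to make this share largest, so it is no check of the depth. All estimated read numbers and intervals rest on it. At this depth the median counting half-width of a log2 ratio was 0.20, and 0.34 for genes of 5 to 6 FPKM. It holds counting error only.

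Members and gene lists (28 for NK cells and programmes, 14 for other cell types) were chosen with earlier results of these data known. The genes named are Cd226, Il7r and Thy1, the 20 highest and 20 lowest ratios without predicted or clone names, in each list up to 8 members at least 2-fold apart and the 3 most abundant, and all members of 6 receptor, granule and factor lists. Others were picked after their values were seen. A few members are not reported here. Alternatives were other pseudocounts, levels, folds, gene sets and scalings.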

Additional observations from a re-analysis of the deposited data

Results flagged for a closer look

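Among list members at least 1.5-fold apart in normal spleen, 2 had a log2 ratio on the other side of 0 in AML spleen. Ccl4, an inflammatory chemokine, had -0.89 in normal spleen (81.0 against 151 FPKM) and 0.18 in AML spleen (152 against 134 FPKM). Klra5, a Ly49 receptor gene with near-identical relatives, had 0.70 in normal spleen (16.1 against 9.51 FPKM) and -0.27 in AML spleen (8.10 against 9.99 FPKM). With 1 library per group, neither difference between the spleens was tested.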

How the results depend on the processing

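The main counts were 94 genes at least 2-fold higher and 323 lower. The higher count was 26 with a pseudocount of 5 FPKM, 60 with the DNAM-1- library scaled to a median of 0 over the NK lineage list, 146 at a level of 1 FPKM, 146 with no level filter, 21 at a level of 20 FPKM, 240 at 1.5-fold and 20 at 3-fold. The lower count was 137 at a level of 20 FPKM, 497 at 1.5-fold and 210 at 3-fold. Under the other alternatives both counts stayed within 1.5 times. With the NK lineage scaling, which shifted all ratios by about -0.20, mitosis genes at least 2-fold higher went from 21 to 14 of 32, and with a pseudocount of 5 FPKM to 7. Of the ratios of genes named by rule, none of the 161 at 2-fold or more changed sign under the 2 pseudocounts and 3 scalings. Of the 140 within 2-fold, 32 changed sign under the NK lineage scaling, all 0.19 or less in size (Eomes, Gapdh and Spn among them), 2 and 3 under the other scalings and 0 under the pseudocounts. Of 42 list medians, 12 changed sign under the NK lineage scaling, all of them 0.18 or less in size (among them the cytotoxic, transcription factor and MHC class I lists), and that of the ribosomal proteins (0.01) did so under each scaling. No paired analysis was possible because each group holds 1 library and no mouse is identified. Depth limits genes near 5 FPKM most.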
